A study of Mus musculus with 5 samples.

Results

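The 10 genes described here carry out the main steps of MHC class I antigen presentation. They are the classical heavy chain genes H2-K1 and H2-D1, B2M, the peptide transport and loading genes TAP1, TAP2 and TAPBP, the immunoproteasome genes PSMB8, PSMB9 and PSMB10, and the transactivator gene NLRC5. They were chosen by name for their function in the pathway, and all 10 were found among the 13979 gene symbols shared by the 3 deposited tables used, with a value above 0 in each library. RNA was sequenced in 5 mouse LLC groups (LLC is the Lewis lung carcinoma cell line, of C57BL/6 origin) to ask how a PARP inhibitor and a carrier of a DNA methyltransferase inhibitor act alone and together. Each group had 1 library, so no difference has a replicate check, no test was made, and every comparison is between libraries.

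The Control group received no drug, and saline is the control injection named in the methods of the study. The BMN group received the PARP inhibitor talazoparib alone. The PAZA group received the carrier alone, a polymer to which the DNA methyltransferase inhibitor azacytidine is conjugated. The low-dose BMN/PAZA and high-dose BMN/PAZA groups received the carrier loaded with BMN at a low or a high dose. The labels name the dose only with BMN, whereas in the formulations of the study the doses of BMN and azacytidine change together. Low against high dose is then not a change in BMN alone. By the labels the samples are LLC cells, treated in culture during 72 h, whereas the methods describe tumors grown under the skin of C57BL/6 mice and collected a day after the last injection. Whether a library holds 1 tumor or several is not given in the sources used here.

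Transcripts of cells other than carcinoma cells were present in every library. On a scale where each library sums to 1000000 (scaled value), 6 leukocyte markers summed to between 188 and 283 and 7 macrophage markers to between 328 and 473, with no marker of either list at 0. Fibroblast markers summed to 313 in Control, 817 in BMN, 534 in PAZA, 318 in the low-dose library and 350 in the high-dose library, so they were lowest in Control and highest in BMN. Skeletal muscle markers ranged from 7.88 in Control to 187 in the high-dose library, and keratinocyte markers from 2.17 in the low-dose library to 207 in BMN. The labels' description of cultured LLC cells therefore does not match the markers. In such bulk RNA, fewer cells of a type and less RNA per cell cannot be told apart. Mitochondrial transcripts took between 24.7% and 34.4% of the scaled sum, and the small nuclear RNA RN7SK between 6.66% and 13.6%.

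MHC class I molecules display peptides from inside the cell to CD8+ T cells. Proteasomes cut proteins into peptides, and the immunoproteasome subunits replace the constitutive ones in cells exposed to interferon gamma. The TAP transporter moves peptides into the endoplasmic reticulum, where tapasin, the product of TAPBP, helps to load them onto a heavy chain paired with beta-2 microglobulin, the product of B2M. NLRC5 is a transactivator that acts on the promoters of class I genes, and tumor cells often escape T cells by lowering these genes.

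By the GENCODE M21 annotation of GRCm38, 7 of the 10 genes lie on chromosome 17 within 1.35 Mb, in the mouse MHC. TAPBP lies at chr17:33915899-33929292 and H2-K1 at chr17:33996017-34000347. PSMB9, TAP1, PSMB8 and TAP2 stand side by side between chr17:34181987-34187764 for PSMB9 and chr17:34203527-34216321 for TAP2. H2-D1 lies at chr17:35262730-35267499, at the far end of the span. B2M lies on chromosome 2 at chr2:122147686-122153083, and PSMB10 (chr8:105935735-105938444) and NLRC5 (chr8:94434356-94527272) lie on chromosome 8.

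The stretches before the transcription starts are shown for 5 genes, because class I promoters share short elements through which NF-kB, CREB/ATF and NF-Y factors, interferon-regulated factors and NLRC5 are known to act. They are RefSeq sequences of GRCm38.p6, 250 bases before the start for each of the first 3, written in the direction of transcription. H2-K1 is chr17:34000348-34000597 on the minus strand, H2-D1 is chr17:35262844-35263093 on the plus strand and B2M is chr2:122147437-122147686 on the plus strand. TAP1 and PSMB9 are transcribed away from each other, and the 225 bases between their starts, chr17:34187331-34187555, are written in the direction of TAP1. Capitals mark matches on either strand to the motifs CCAAT (known from NF-Y), GGGGATTCC (NF-kB) and TGACG (CREB/ATF), and in B2M also to the interferon response core (GAAA, any 2 bases, then the same 4 letters again) and to a second NF-kB pattern (GGGA, any base, then TT, any base and a final pair of C).
H2-K1: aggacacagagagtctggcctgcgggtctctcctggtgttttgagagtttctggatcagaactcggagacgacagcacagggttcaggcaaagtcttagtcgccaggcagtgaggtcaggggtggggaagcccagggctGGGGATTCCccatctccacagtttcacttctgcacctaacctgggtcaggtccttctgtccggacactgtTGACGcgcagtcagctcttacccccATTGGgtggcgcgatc
H2-D1: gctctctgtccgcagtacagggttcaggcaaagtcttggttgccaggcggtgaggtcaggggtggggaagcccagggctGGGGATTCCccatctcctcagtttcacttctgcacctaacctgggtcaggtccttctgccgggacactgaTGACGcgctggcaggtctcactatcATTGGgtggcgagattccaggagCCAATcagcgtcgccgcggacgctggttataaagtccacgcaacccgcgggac
B2M: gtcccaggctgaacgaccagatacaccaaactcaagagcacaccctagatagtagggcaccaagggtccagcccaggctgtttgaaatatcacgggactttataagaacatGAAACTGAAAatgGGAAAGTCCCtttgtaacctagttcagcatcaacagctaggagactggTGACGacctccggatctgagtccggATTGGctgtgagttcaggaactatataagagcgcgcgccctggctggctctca
TAP1 and PSMB9: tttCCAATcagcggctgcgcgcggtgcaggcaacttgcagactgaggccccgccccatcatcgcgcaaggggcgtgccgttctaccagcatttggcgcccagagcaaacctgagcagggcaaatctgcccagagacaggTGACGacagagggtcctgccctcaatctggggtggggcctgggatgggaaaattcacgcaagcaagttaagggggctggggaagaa

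Of the 8 members with a promoter in the reference table (NLRC5 and TAP2 have no entry), 6 held CCAAT within 250 bases, against 33.8% of 32851 promoters of the same length. TGACG, which is also part of the longer motif TGACGTCA, stood in 5 of 8 (H2-K1, H2-D1, B2M, TAP1 and PSMB9), against 17.8% of all. TAP1 and PSMB9 share their stretch, so that 1 CCAAT site and 1 TGACG site are each counted for both genes. GGGGATTCC stood in H2-K1 and H2-D1, against 0.213% of all. The interferon response core stood in B2M alone of the 8 (2.98% of all), the second NF-kB pattern also in B2M alone (0.980%), the gamma-activated site (TTC, any 3 bases, then GAA) in PSMB8 alone (7.02%) and TGACGTCA in 0 of 8 (1.55%). TGACG and GGGGATTCC were added to the search after the sequences were seen. These matches describe letters in a window and not binding.

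No unit is named in the tables. Their form is that of FPKM (fragments normalised to transcript length and library size), and on that reading levels of different genes can be set side by side per length. Without read counts the depth is unknown, and counting intervals could not be given. Control and PAZA came from 1 table, BMN and high-dose BMN/PAZA from another, and low-dose BMN/PAZA from a table shared with high-dose BMN/PAZA, and levels set across these tables rest on the common scaling. By mean scaled value over the 5 libraries, B2M was the highest of the 10 at 12690.5, followed by H2-K1 at 975, H2-D1 at 373, PSMB8 at 151 and PSMB9 at 119. TAPBP (58.9), NLRC5 (35.3), TAP2 (22.5), PSMB10 (17.02) and TAP1 (17.005) were lower. Neighbouring ranks whose ranges over the libraries overlapped, such as TAP1, PSMB10 and TAP2, or PSMB8 and PSMB9, were not separated by these libraries.

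**Figure D1:**
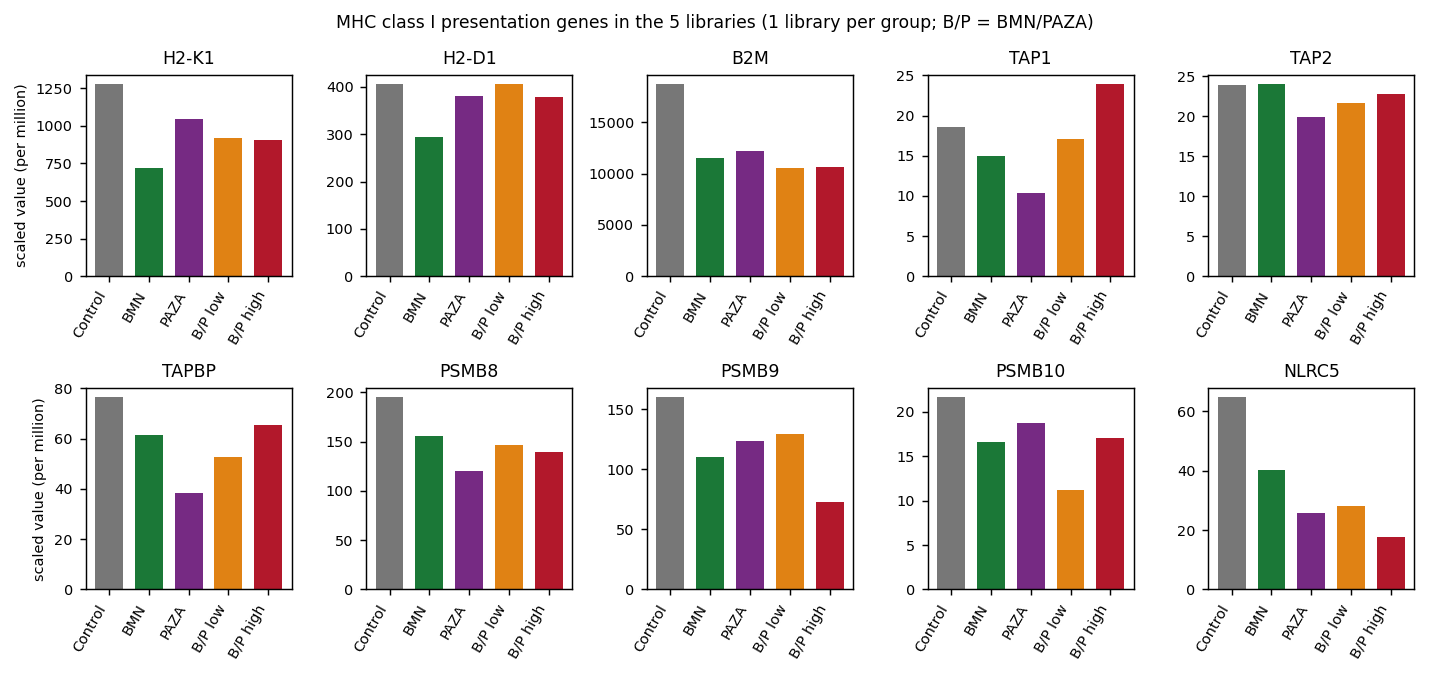
Scaled value (linear axis from 0, a different range in each panel) of the 10 genes in the 5 libraries, 1 bar per library. For 8 of the 10 genes the Control bar is the highest with the tables used, the exceptions being TAP1, highest in the high-dose library, and TAP2, nearly equal in Control and BMN.

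Values of 1 library did not always agree between the tables that hold it, and the members divide by this. H2-K1, H2-D1 and TAP2 agreed in every table to within 0.5% of the constant between tables. The other 7 did not agree for the low-dose library. In the table with BMN, the low-dose values of these 7 were 2.0 times those in the table with high-dose BMN/PAZA, after the constant of 0.307 that most symbols share. In the table with PAZA, their low-dose values were 1.5 times the PAZA values of the table with Control (constant 1.01), and their PAZA values equalled the low-dose values of the other table (constant 0.293). B2M, for example, was deposited for the low-dose library at 19976, 12253 and 10676 FPKM in the tables with high-dose BMN/PAZA, BMN and PAZA.

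The same exchange with the same multiple held for 169 of 13142 symbols (1.29%), and all 169 also had the 2.0-fold value in the table with BMN. The interferon-induced factor IRF1 was among them, whereas the constitutive subunits PSMB5, PSMB6 and PSMB7 and the chaperone calreticulin (CALR) were not. The low-dose column in the table with high-dose BMN/PAZA also had at most 6 significant digits for all 10 members only after division by 3.6. In the low-dose column of the table with BMN 5 members had more than 6 digits, and all 5 had at most 6 after division by 2. In that of the table with PAZA 5 members had more, and all 5 had at most 6 after division by 1.5. No member had more than 6 digits in the other columns examined. What made these multiples was not tested. The Control library stands in only 1 table and could not be compared in this way. BMN and high-dose values agreed for all 10 members between the tables that hold them.

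**Figure D2:**
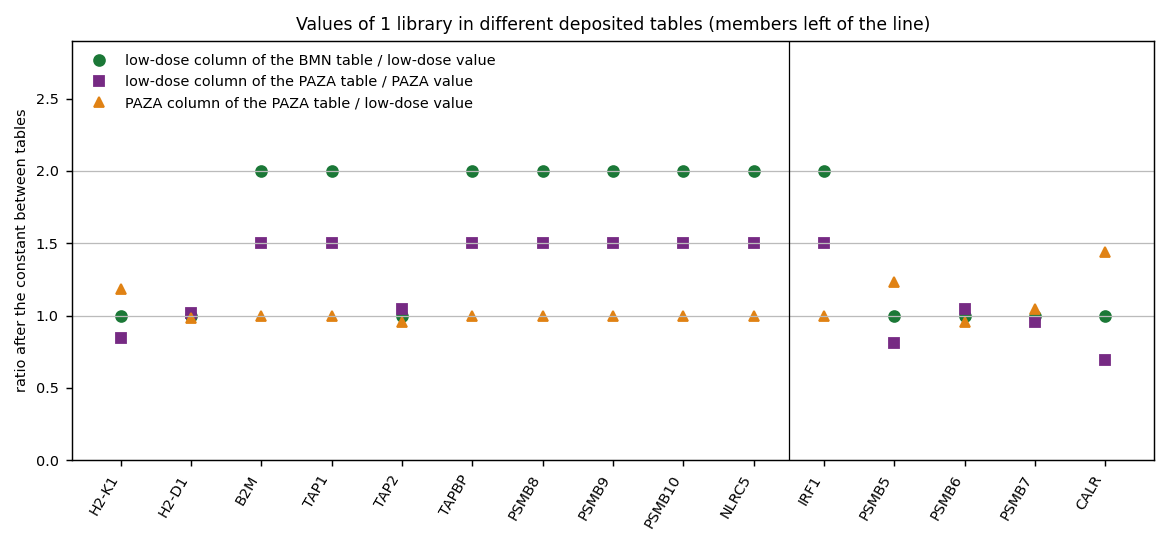
Ratio of a deposited value to the value of the main tables after the constant between tables, for the 10 members and 5 related genes (linear axis, grey lines at 1, 1.5 and 2). Circles compare the low-dose column of the BMN table with the low-dose value, squares the low-dose column of the PAZA table with the PAZA value, and triangles the PAZA column of that table with the low-dose value. Circles at 2, squares at 1.5 and triangles at 1 mark 7 members and IRF1.

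Against Control, most of the 10 genes stood lower in each treated library on this scale. In PAZA, 10 of 10 were lower (56.4% of all symbols), with a median difference of -0.49 in log2(scaled value + 1) beside -0.07 over 13979 symbols. In BMN, 9 of 10 were lower (40.1%), with a median of -0.42 beside 0.09 over all symbols. In the low-dose library 10 of 10 were lower (52.8% of all, median -0.44 beside -0.03), and in the high-dose library 9 of 10 were lower (64.5% of all, median -0.40 beside -0.17). The exceptions were TAP2, level with Control in BMN, and TAP1, higher in the high-dose library. All 4 comparisons share the single Control library, so a high Control value of a gene would lower that gene in each of them.

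These directions depended on the scaling for some genes. Scaling by the median of ratios multiplies PAZA by 1.08, BMN by 0.922, the low-dose library by 1.06 and the high-dose library by 1.18 relative to the main scale, and brings the median of all symbols in the high-dose library from -0.17 to 0.00. Under it H2-D1 turned higher than Control in PAZA and in the low-dose library, H2-D1, TAP2 and TAPBP turned higher in the high-dose library beside TAP1, and TAP2 turned lower in BMN. The members' median relative to all symbols was then -0.40 in PAZA, -0.53 in BMN, -0.38 in the low-dose library and -0.17 in the high-dose library. The low-dose directions also depended on the table. With the low-dose values of the table with BMN, 4 of 10 members were lower than Control (median 0.083), and with those of the table with PAZA 7 of 10 were (median -0.11), in place of 10 of 10 and -0.44. With PAZA from its other table, 10 of 10 were also lower in PAZA. The PAZA values of 7 members there equal the low-dose values, which were already lower than Control, and the other members are unchanged. This is therefore no separate check of PAZA.

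Past 1.5-fold, 5 of 10 members were lower in PAZA, against 14.0% of all symbols, and 0 were higher, against 10.5%. Under the median of ratios the PAZA count became 3 lower, and of all symbols 10.9% were lower and 13.3% higher in PAZA, 8.83% and 10.4% in BMN, 10.3% and 13.5% in the low-dose and 10.1% and 13.3% in the high-dose library. In BMN, 3 of 10 were lower (6.89% of all) and 0 higher (13.2%). In the low-dose library 3 of 10 were lower (12.8%) and 0 higher (11.3%), and in the high-dose library 3 of 10 were lower (18.1%) and 0 higher (8.49%). With the low-dose values of the table with BMN, the low-dose counts against Control became 0 lower and 2 higher, and with those of the table with PAZA 1 lower and 0 higher, beside 13.3% and 13.0% of all symbols lower and 11.7% and 11.3% higher. B2M and NLRC5 were past this fold in each of the 4 treated libraries on the main scale and tables. B2M lost this under the median of ratios in PAZA (-0.51) and in the high-dose library (-0.58), and with the low-dose values of either other table (0.14 and 0.013). NLRC5 lost it in the low-dose library with the table with BMN (-0.22). Of the 3 members that agree between tables, only H2-K1 in BMN was past it.

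**Figure D3:**
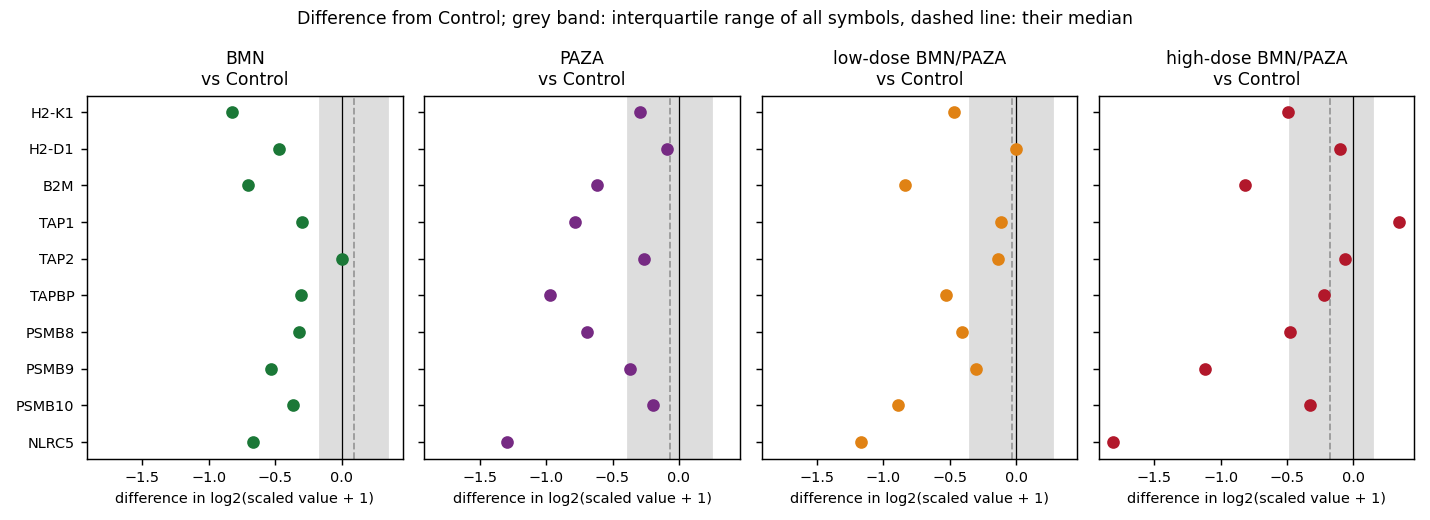
Difference from Control in log2(scaled value + 1) of the 10 genes (points) in each treated library, with the interquartile range (grey band) and median (dashed line) of all symbols. NLRC5 is the lowest point in PAZA, the low-dose library and the high-dose library, at -1.29, -1.17 and -1.81, and H2-K1 is the lowest in BMN at -0.83.

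H2-K1, which encodes the K heavy chain that binds peptide, had scaled values of 1277 in Control, 719 in BMN, 1045 in PAZA, 922 in the low-dose library and 909 in the high-dose library. It was highest in Control and lowest in BMN. The BMN value was 0.563 times that of Control, a difference of -0.83, and below it stood 3.48% of all symbols in that comparison. The differences from Control in PAZA, the low-dose and the high-dose library were -0.29, -0.47 and -0.49.

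H2-D1, the second classical heavy chain gene, had scaled values of 406 in Control, 293 in BMN, 381 in PAZA, 406 in the low-dose library and 378 in the high-dose library. Only BMN stood apart from the other 4 libraries, at 0.722 times Control (-0.47). The ratio of H2-K1 to H2-D1 was 3.15 in Control and between 2.27 and 2.74 in the treated libraries, so H2-K1 stood further below Control than H2-D1 did in each treated library. The transcripts of the genes overlap in sequence. Of the 50-base windows of H2-K1, 8.79% also occurred in another gene, most often H2-D1, and of those of H2-D1 14.3%, most often H2-Q1. How the authors' counting divided such reads is not given in the sources used here, and the levels of both genes are uncertain to that extent.

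B2M, whose product every classical class I molecule needs at the cell surface, had scaled values of 18705 in Control, 11474 in BMN, 12187 in PAZA, 10491 in the low-dose library and 10595 in the high-dose library. Control was far above the 4 treated libraries, which lay near each other. The values were 0.613, 0.652, 0.561 and 0.566 times Control in BMN, PAZA, low-dose and high-dose BMN/PAZA. B2M took 1.87% of the summed scaled values in Control, where it ranked 4 among all symbols, and between 1.05% and 1.22% in the treated libraries. With the low-dose value of the table with BMN or of the table with PAZA, the low-dose library stood level with or above Control, at 0.14 and 0.013 in place of -0.83. B2M stood 14.6 times above H2-K1 in Control, 16.0 times in BMN and between 11.4 and 11.7 times in the other 3 libraries. The low-dose ratio became 22.7 and 20.7 with the tables with BMN and PAZA. With PAZA from its other table, the PAZA ratio became 9.59, and B2M in PAZA stood at -0.90 against Control in place of -0.62.

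TAP1, a subunit of the peptide transporter, had scaled values of 18.6 in Control, 15.0 in BMN, 10.4 in PAZA, 17.1 in the low-dose library and 23.9 in the high-dose library. PAZA was the lowest and the high-dose library the highest. The PAZA value was 0.559 times Control (-0.78) and the high-dose value 1.28 times Control (0.34). With PAZA from its table with low-dose BMN/PAZA the PAZA difference was -0.17, and with the low-dose value of the table with BMN the low-dose library was the highest, at 0.82 above Control. TAP2, the partner subunit, varied least, with scaled values of 23.96, 24.01, 19.8, 21.7 and 22.8 in Control, BMN, PAZA, low-dose and high-dose BMN/PAZA. The ratio of TAP1 to TAP2 was 0.778 in Control, 0.623 in BMN, 0.525 in PAZA, 0.788 in the low-dose and 1.05 in the high-dose library, and the low-dose ratio became 1.58 with the table with BMN. The PAZA ratio became 0.823, above Control, with PAZA from its other table. By GENCODE M21 the TAP1 and PSMB9 gene models overlap at their starts on opposite strands, and whether the counting used strand is not given.

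TAPBP had scaled values of 76.4 in Control, 61.7 in BMN, 38.5 in PAZA, 52.7 in the low-dose library and 65.4 in the high-dose library. As for TAP1, PAZA was the lowest. The PAZA value was 0.503 times Control (-0.97), whereas the PAZA value deposited in the table with low-dose BMN/PAZA gave -0.59. The low-dose difference of -0.53 became 0.43 with the table with BMN and -0.35 with the table with PAZA.

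The immunoproteasome genes were highest in Control with the tables used, but not with the low-dose values of the table with BMN, which put PSMB8 at 0.57 and PSMB9 at 0.67 above Control. PSMB8 had scaled values of 195 in Control, 156 in BMN, 120 in PAZA, 147 in the low-dose library and 139 in the high-dose library, and its largest difference from Control was -0.69, in PAZA. PSMB9 had scaled values of 160, 110, 124, 129 and 73.1 in the same order, and its largest difference was -1.12, in the high-dose library. PSMB10 had scaled values of 21.6, 16.6, 18.8, 11.2 and 16.99, with its largest difference on these tables, -0.89, in the low-dose library. That low-dose value was 0.517 times Control, but with the low-dose values of the tables with BMN and PAZA the difference was 0.023 and 0.41. With those of the table with PAZA, PSMB8 stood at -0.064 and PSMB9 at 0.26. With PAZA from its table with low-dose BMN/PAZA, the PAZA difference of PSMB10 was -0.95 in place of -0.19, and that of PSMB8 was -0.47 in place of -0.69.

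The constitutive subunits that these 3 replace were measured beside them. PSMB5 had scaled values of 8.72 in Control, 12.7 in BMN, 17.1 in PAZA, 14.6 in the low-dose library and 11.4 in the high-dose library, and Control was the lowest. PSMB6 was at 126, 111, 159, 174 and 141, and PSMB7 at 166, 203, 170, 170 and 155. Of the 3, 3 were higher than Control in PAZA and in the low-dose library and 2 of 3 in BMN and in the high-dose library, beside 43.6%, 47.2%, 59.9% and 35.5% of all symbols in PAZA, low dose, BMN and high dose. PSMB7 stood only 0.04 above Control in PAZA and in the low-dose library. The ratio of PSMB8 to PSMB5 was 22.4 in Control, 12.2 in BMN, 7.02 in PAZA, 10.1 in the low-dose library and 12.2 in the high-dose library. PSMB5 stood far below PSMB6 and PSMB7 in each library, so this ratio rests on a low denominator, and sequence overlap of PSMB5 with other genes was not examined. PSMB9 to PSMB6 was 1.26, 0.993, 0.776, 0.741 and 0.519, and PSMB10 to PSMB7 was 0.130, 0.0815, 0.110, 0.0656 and 0.110. With these tables all 3 ratios were highest in Control, and as ratios within a library they do not depend on the scaling. The low-dose and PAZA ratios depended on the table. With the low-dose values of the table with BMN they were 20.1, 1.48 and 0.131, and with those of the table with PAZA 13.0, 1.12 and 0.173, so that PSMB9 to PSMB6 stood above Control with the first and PSMB10 to PSMB7 stood at or above it with both. With PAZA from its other table, the PAZA ratios were 8.18, 0.773 and 0.0626, the last below the low-dose value.

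NLRC5 had scaled values of 64.6 in Control, 40.2 in BMN, 25.8 in PAZA, 28.2 in the low-dose library and 17.7 in the high-dose library. Control was the highest and the high-dose library the lowest, and BMN was the treated library nearest to Control. The values were 0.623, 0.399, 0.436 and 0.275 times Control in BMN, PAZA, low-dose and high-dose BMN/PAZA. In the high-dose library 0.621% of all symbols had a lower difference from Control. With the low-dose values of the tables with BMN and PAZA, the low-dose difference from Control was -0.22 and -0.68 in place of -1.17, and with the first the low-dose library was the nearest to Control. NLRC5 was lower than Control under each scaling, and its value in BMN and in the high-dose library was the same in both tables that hold them.

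**Figure D4:**
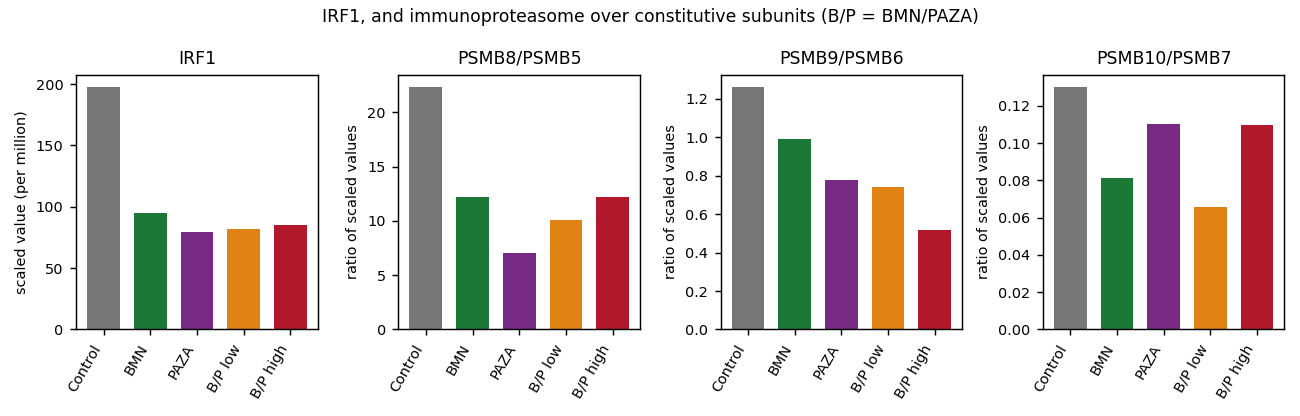
Scaled values of IRF1, and ratios of scaled values of each immunoproteasome gene to the constitutive gene it replaces, in the 5 libraries (linear axes from 0). Control is the highest bar in every panel with the tables used, and the low-dose bars depend on the table.

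Of 20 regulators, 6 were lower than Control in BMN, 10 in PAZA, 13 in the low-dose and 15 in the high-dose library, beside 40.1%, 56.4%, 52.8% and 64.5% of all symbols, and past 1.5-fold 1, 4, 3 and 6 were lower (beside 6.89%, 14.0%, 12.8% and 18.1% of all symbols) and 3, 3, 2 and 3 higher (beside 13.2%, 10.5%, 11.3% and 8.49%). IRF1, an interferon-induced activator of class I promoters, had scaled values of 198 in Control, 94.6 in BMN, 79.1 in PAZA, 81.6 in the low-dose library and 85.1 in the high-dose library. It was highest in Control, with differences from it of -1.06 to -1.31 on these tables. IRF9, which acts in type I interferon signaling, was at 9.79, 7.21, 3.89, 8.48 and 6.74. Both genes differ between tables, as 7 members do. The regulators IRF2, STAT2, JAK2, SOCS1, RELA and NFKB1 differ as well, so the low-dose and PAZA counts above depend on the table, and they were not counted with the other tables. JAK2, at -0.586 just past 1.5-fold in the low-dose library, had a low-dose value 2.0 times as high in the table with BMN. With the low-dose values of the tables with BMN and PAZA, the low-dose difference of IRF1 was -0.30 and -0.69 in place of -1.27, and that of IRF9 was 0.71 and -0.62 in place of -0.19. With PAZA from its other table, IRF9 in PAZA stood at -0.24 in place of -1.14.

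The RFX subunits that recruit NLRC5 to promoters moved in different directions. RFX5 had scaled values of 4.83, 3.09, 2.94, 1.90 and 2.47 in Control, BMN, PAZA, low-dose and high-dose BMN/PAZA. RFXAP was at 23.4, 38.5, 31.4, 28.6 and 50.3, and RFXANK at 1.51, 2.38, 2.57, 4.58 and 4.55. RFX5 was thus highest in Control, where RFXAP and RFXANK were lowest. The transcript of interferon gamma itself (IFNG) stayed under 1 in each library, between 0 in the high-dose library and 0.946 in PAZA.

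Of 16 other class I heavy chain genes listed, 11 were found, and 6, 6, 6 and 8 were lower than Control in BMN, PAZA, low-dose and high-dose BMN/PAZA, with medians of -0.29, -0.02, -0.19 and -0.08. Over all symbols 40.1%, 56.4%, 52.8% and 64.5% were lower in the same order, with medians of 0.09, -0.07, -0.03 and -0.17, and these stand as the background for the lists that follow. The nonclassical gene H2-T24 passed the naming rule, with scaled values of 6.65 in Control, 8.68 in BMN, 2.69 in PAZA, 4.15 in the low-dose library and 6.36 in the high-dose library. Of the 7 loading and trimming genes, 4, 5, 6 and 7 were lower, with medians of -0.06, -0.19, -0.10 and -0.30. CALR, a chaperone of the loading complex, was at 1388, 1894, 1651, 1201 and 1128 and was highest in BMN. Of the 5 proteasome activator and assembly genes, 3, 3, 3 and 4 were lower, with medians of -0.01, -0.05, -0.03 and -0.51. Among them PSME1 and PSME2 differ between tables, and with the low-dose values of the table with BMN they stood at 1.01 and 1.23 above Control, in place of 0.04 and 0.26.

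Markers of immune cells did not move as 1 block with the members. T cell markers summed to 17.8 in Control, 11.6 in BMN, 24.2 in PAZA, 7.68 in the low-dose library and 3.85 in the high-dose library, where CD3E and TRAC were at 0, as CD3D was in Control and in the low-dose library. NK cell markers summed to 41.0, 36.8, 26.3, 34.4 and 27.5, and leukocyte markers to 227, 283, 255, 202 and 188. Neutrophil markers summed to 72.8, 64.6, 124, 122 and 233. With the tables used, NK cell markers were, like B2M and NLRC5, highest in Control, as B cell markers were. Leukocyte and macrophage markers were highest in BMN and neutrophil markers in the high-dose library. The NK cell marker GZMA had a low-dose value in the table with BMN 2.0 times the main one, so the low-dose NK sum depends on the table. KLRB1C was at 0 in BMN and in the high-dose library. The other lists summed to between 2.74 in Control and 7.10 in BMN for dendritic cells and between 0 in BMN and 2.21 in Control for B cells. They summed to between 27.4 and 47.3 for endothelium and 44.5 and 105 for adipocytes. The part of these cells in the members' differences was not tested.

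The combination at low dose was set beside each single agent. Against BMN, 4 of 10 members were higher and 6 lower (60.7% of all symbols), with a median of -0.11 beside -0.14 over all symbols, and past 1.5-fold 0 were higher (9.41% of all) and 0 lower (18.6%). Under the median of ratios, B2M, TAP2 and PSMB8 also turned higher, and 7 of 10 were higher, 1 of them past 1.5-fold (13.8% of all symbols, with 12.0% lower). Of the members that agree between tables, H2-K1 was higher by 0.36, H2-D1 by 0.47, and TAP2 was at -0.14. With both columns of the table that holds these 2 libraries, as deposited, the median was 0.78 over 10 members, beside 0.07 over 24374 symbols. It was 0.52 over the 3 that agree between tables and 1.04 over the 7 that do not. In these columns 7 of 10 were higher past 1.5-fold, against 10.9% of those symbols. The low-dose values of the 7 that do not agree are 2.0 times the main ones there, so this count rests partly on that multiple.

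Against PAZA, 7 of 10 members were higher (54.2% of all symbols) and 3 lower (H2-K1, B2M and PSMB10) in the low-dose library, also under the median of ratios, with a median of 0.11 beside 0.03. Past 1.5-fold TAP1 was higher (9.36% of all symbols), at 1.64 times, and PSMB10 lower (8.07%), at 0.595 times. These are members whose values differ between tables. With the low-dose values of the tables with BMN and PAZA, 6 and 7 members were higher past 1.5-fold (9.98% and 9.54% of all symbols) and 0 lower. For 7 members these low-dose values are 2.0 times the main ones in the table with BMN, and 1.5 times the PAZA values in the table with PAZA. These counts therefore follow largely from the multiples and are not a separate result. In the table that holds both libraries, as deposited, TAP1 was at -0.059 and PSMB10 at 1.27. The members that agree between tables had differences of -0.18 for H2-K1, 0.09 for H2-D1 and 0.12 for TAP2.

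Between the low and the high dose, 5 of 10 members were higher at the low dose (65.5% of all symbols) and 5 lower, with a median of 0.00 beside 0.13 over all symbols. Past 1.5-fold PSMB9 (1.77 times) and NLRC5 (1.59 times) were higher at the low dose (12.5% of all symbols), and 0 were lower (6.50%). Under the median of ratios both were still higher, but NLRC5 (0.49) was no longer past 1.5-fold, 2 members (TAP1 and PSMB10) were lower past it (8.98% of all symbols, with 9.23% higher), and H2-K1, H2-D1 and PSMB8 turned lower. PSMB9 and NLRC5 are among the members whose low-dose values differ between tables. With the low-dose values of the tables with BMN and PAZA, 5 and 4 members were higher past 1.5-fold (13.2% and 12.7% of all symbols), and these counts carry the multiples described above. H2-K1, B2M and TAP2 were within 0.07 of the high-dose value on the log2 scale, although B2M stood at 0.96 and 0.83 with those tables. PSMB10 and TAP1 had the largest differences in the other direction, -0.56 and -0.46.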

How the data were processed

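Reads were processed by the authors with HISAT2 and StringTie on GRCm38, as named in the submitters' processing notes without versions. The authors deposited 5 tables, each with 1 value per gene for 2 groups. The deposited values were read as FPKM from their form, since the tables name no unit, and 0 columns of other samples were present. Control and PAZA, BMN and high-dose BMN/PAZA, and low-dose BMN/PAZA were each read from 1 of 3 tables. The row with the highest mean was used for a repeated symbol. Each column was scaled to a sum of 1000000 over the shared symbols, and differences were taken as log2(scaled value + 1), which understates the change of low genes. Symbols at 0 in both libraries were left out. The depth per sample is unknown, which limits the precision for low genes. With 1 library per group, no test was made.

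For a library held by several tables, the constant was the median ratio over symbols, and a gene over 0.5% from it was said to disagree. All 10 members were named, and of the pathway lists PSMB5, PSMB6, PSMB7, IRF1, CALR and genes at a scaled value of 1 or more that differed from Control by at least 1 on the log2 scale. IFNG, PSME1, PSME2, GZMA, KLRB1C, the T cell markers and the regulators IRF2, STAT2, JAK2, SOCS1, RELA and NFKB1 were named after their values were seen. A listed regulator is not reported here. The members and lists were chosen with earlier results of these data known. Transcript windows of 50 bases were compared over GENCODE M21, and promoters were taken from RefSeq. The steps were tested on simulated data. Alternatives were another pseudocount of 0.1, other scalings, other tables for a library, the mean of repeated symbols, a filter on low values and the members that agree between tables. The software was pandas 2.3.3, numpy 2.4.6, matplotlib 3.10.9, scipy 1.17.1 and Python 3.11.15.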

Additional observations from a re-analysis of the deposited data

How the results depend on the processing

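No paired analysis was possible because each group has 1 library. A value was said to move when it changed by over 0.1 on the log2 scale, or a count by over 1.5 times. It was said to reverse only when it was past 1.5-fold on the main setting and changed sign. The cause of each move was not tested, except that an alternative with fewer members or another table changes the values by its own construction. Another pseudocount of 0.1 moved 1 result, the members lower past 1.5-fold at the low against the high dose, which became 1, and the mean of repeated symbols, the filter on low values and BMN from its other table moved none of those computed.

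With median-of-ratios scaling, the members' median was -0.39 for PAZA, -0.53 for BMN and -0.17 for high-dose BMN/PAZA against Control, 0.093 for low dose against BMN and -0.15 for low against high dose. Under it 3 members were lower past 1.5-fold in PAZA, 1 was higher at low dose than in BMN, and at low against high dose 1 was higher and 2 lower. Scaling without RN7SK, mitochondrial and small nucleolar RNA, chosen after seeing the data, gave medians of -0.16 for high dose against Control and -0.19 for low against high dose, with 1 member higher past 1.5-fold in high dose against Control and, at low against high dose, 1 higher and 2 lower. As deposited and unscaled, low against high dose had a median of 1.70 (1.44 over all symbols) and 10 members higher.

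With low-dose values of the table with BMN, the median was 0.083 against Control, 0.60 against BMN, 0.90 against PAZA and 0.57 against high dose, with 2, 5, 6 and 5 members higher and 0 lower against Control and PAZA. B2M reversed to 0.14 and PSMB10 to 0.023 against Control, and PSMB10 to 0.22 against PAZA. TAP1, TAPBP, PSMB8 and PSMB9, which were not past 1.5-fold on the main tables, also turned higher than Control. With those of the table with PAZA, the medians were -0.11, 0.30, 0.61 and 0.25 in the same order. Members higher were then 3 against BMN, 7 against PAZA and 4 against high dose, and members lower 1 against Control and 0 against PAZA. B2M reversed to 0.013 and PSMB10 to 0.41 against Control, and PSMB10 to 0.61 against PAZA. With PAZA from its table with the low dose, 0 members were higher and 0 lower at low dose against PAZA, and PSMB10 reversed to 0.056. There 7 members hold the low-dose values as PAZA values, which sets their differences near 0. Both columns of their own table as deposited, chosen after seeing the data, gave medians of 0.78 for low dose against BMN and 0.28 against PAZA, where PSMB10 reversed to 1.27 and TAP1 to -0.059.

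With only the 3 members that agree between tables, the median was -0.26 for PAZA, -0.14 for low dose and -0.10 for high dose against Control, and 0.36 for low dose against BMN. Of them 1 was lower past 1.5-fold in BMN, 0 in PAZA, in low dose and in high dose against Control, 0 were higher or lower at low dose against PAZA, and 0 were higher at low against high dose. With 1 library per group and no read counts, neither the spread between tumors nor counting error is known for any value.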

Other observations

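Of 11204 symbols outside the members with a mean scaled value of at least 1, TNFRSF10B, which encodes a death receptor for TRAIL, had the pattern over the 5 libraries most like the mean of H2-K1, H2-D1 and TAP2. Its root mean square distance on the log2 scale was 0.0323, and its scaled values were 9.50 in Control, 7.32 in BMN, 8.29 in PAZA, 8.52 in the low-dose library and 8.45 in the high-dose library. ARMC8 (0.0333), ZFP839 (0.0414), the chemokine gene CCL25 (0.0427) and the myosin gene MYO19 (0.0429) followed. Of the 10 members, NLRC5 lay farthest from that mean pattern, at 0.579, and H2-D1 nearest, at 0.0872, although H2-D1 is part of it. The likeness rests on 5 libraries and is a description.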
